A study of Mus musculus with 12 samples.

Results

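Dux-knockout mouse embryonic stem cells were compared with wild-type cells in the absence of a DNA-damaging drug. The comparison takes 4 of the 12 libraries of the series, namely 2 Dux-knockout (Dux KO) and 2 wild-type (WT) libraries of vehicle-treated cells, chosen by their genotype and treatment labels. All cells were of E14, a mouse embryonic stem cell line, grown on gelatin without a named feeder layer in medium with serum, leukaemia inhibitory factor and the 2 inhibitors PD0325901 and CHIR99021. The vehicle was DMSO, given for 6 h before the medium was changed, beside parallel cultures given 1 uM doxorubicin for 6 h. The Dux KO libraries come from knockout lines numbered 1 and 2, 1 library each, so that line and replicate cannot be told apart. The WT libraries are of 1 named genotype with no line given, and since their data columns carry no replicate number they are called a and b. The labels name puromycin, Geneticin or blasticidin for selecting stable lines and do not tie a drug to a line. The kind of edit made at Dux, and the time in drug-free medium, are not given in the sources used here. The series also holds 2 lines of p53-knockout (p53 KO) cells, whose vehicle libraries are quoted beside some results.

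Dux is a double-homeobox transcription factor encoded by repeated gene copies and expressed in the mouse embryo when its own genome is first switched on. It binds DNA in front of a set of genes and retroviral repeats that mark the 2-cell embryo, among them the Zscan4 zinc-finger genes, the Usp17-like deubiquitinase genes, and the Tdpoz and Eif1a-like genes. In stem cell cultures a small share of cells passes in and out of a state with these transcripts, called 2-cell-like. In bulk RNA, fewer such cells and less RNA per cell cannot be told apart.

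Total counts were 27059180 and 28655512 in WT a and b, 56795858 in Dux KO line 1 and 55638734 in line 2. The deposited count column of line 2 was identical to a drug-treated library of Dux KO cells in all 54532 genes, so levels and the main test use FPKM (reads per kilobase of gene, scaled to library depth), and the counts of line 2 were recovered from its FPKM values. The knockout libraries were thus about as deep as each other and deeper than both WT libraries, and depth and genotype cannot be told apart. FPKM here is per length of the whole gene span, introns included, so levels of genes rich in introns are low on this scale. Line 2 stood apart in its makeup: processed pseudogenes, the intronless copies of other genes, took 16.2% of its counts, against 11.9% in line 1, 11.1% in WT a and 11.8% in WT b. Its FPKM values summed to 493285, against 355442 to 368192 in the other 3 libraries. A more than 2-fold difference on the log2(FPKM + 1) scale separated the Dux KO lines in 573 of 14614 tested genes (3.92%) and the WT libraries in 208 (1.42%), and the 2 p53 KO lines differed by as much in 544 (3.72%). WT a and b differed by more than counting noise (chi-square per degree of freedom 7.98 over 21152 genes), and nothing in the labels says whether they came from separate cultures, so p-values below measure the spread between these samples only.

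The stem cell markers were present in all 4 libraries. Pou5f1, Nanog, Sox2, Zfp42, Esrrb and Klf4 summed to FPKM levels of 637 and 605 in WT and 514 and 576 in Dux KO, and none of the 6 passed the test. Markers of fibroblasts and feeder cells summed to 0.782 and 0.629 in WT and 0.164 and 0.201 in Dux KO, most of the WT sum being Thy1, with Lum at 0 and Col1a2 and Col3a1 at or under 0.002 in all 4 libraries. Primitive endoderm markers (Gata4, Gata6, Sox17, Sox7) summed to at most 0.228 and trophectoderm markers (Cdx2, Elf5, Hand1, Gata3) to at most 0.091. Of the neuroectoderm markers, Pax6 was at 0.02 or less, and Tubb3 was at 5.79 and 4.15 in WT and 3.72 in both Dux KO lines. Sox1 was at 1.14 and 0.921 in WT and 3.51 and 1.80 in Dux KO and was not called (limma adjusted p = 0.17).

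Dux itself was at or near the limit of detection without the drug in both genotypes, so these libraries do not check the knockout at the RNA level. Duxf3, the Dux copy in the annotation (chr10:58229979-58232675, minus strand, GRCm38), had 2 counts in WT a and 0 in WT b, and 0 counts in both Dux KO lines. In the p53 KO lines it had 0 and 14 counts. With doxorubicin the same gene reached 8.64 and 8.53 FPKM in WT cells and stayed listed at 0 in both Dux KO lines. The related Duxbl genes, 3 loci on chromosome 14, were found at 1.48 and 2.23 summed CPM (counts scaled to library depth) in WT and 2.22 and 1.94 in Dux KO, with overlapping groups. Trp53, which encodes p53, was at 17.2 and 13.9 FPKM in WT and 20.5 and 18.98 in Dux KO (log2 difference 0.33, SE 0.30, limma adjusted p = 0.65).

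Transcripts of the 2-cell-stage families were low in WT cells and close to absent in both Dux KO lines. Over the 9 Zscan4 loci (6 genes and 3 pseudogenes) 192 and 186 counts were found in WT a and b, 4 in Dux KO line 1 and 0 in line 2. That is 7.10 and 6.49 CPM in WT against 0.0704 and 0. The WT level was 191 times the Dux KO level, with a 95% exact counting interval of 73.9 to 704. The 5 Usp17l loci gave 77 and 60 counts in WT and 2 and 0 in Dux KO, a ratio of 138 (37.5 to 1150). The 5 Tdpoz loci gave only 10 and 13 counts in WT and 2 and 0 in Dux KO, a ratio of 23.2 (5.73 to 203). These intervals cover counting error only, and they are too narrow to the extent that 1 fragment was counted more than once: among counts of at least 500, odd numbers made up 26.4 to 33.4% in the 11 distinct libraries.

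Zscan4 family members are near copies of each other, and reads cannot be assigned to 1 of them with certainty. The 250 bases before the start of Zscan4c (chr7:11005495-11005744, plus strand) and Zscan4d (chr7:11166149-11166398, minus strand) show this: of 239 aligned bases 232 were the same (97.1%). Both are given 5′ to 3′ from RefSeq on GRCm38.p6, with the 7 differing bases in capitals.
Zscan4c: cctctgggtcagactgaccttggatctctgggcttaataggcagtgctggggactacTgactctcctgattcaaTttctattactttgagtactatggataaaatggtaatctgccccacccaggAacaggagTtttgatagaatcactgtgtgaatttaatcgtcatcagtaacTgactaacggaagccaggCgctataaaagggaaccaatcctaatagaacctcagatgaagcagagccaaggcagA
Zscan4d: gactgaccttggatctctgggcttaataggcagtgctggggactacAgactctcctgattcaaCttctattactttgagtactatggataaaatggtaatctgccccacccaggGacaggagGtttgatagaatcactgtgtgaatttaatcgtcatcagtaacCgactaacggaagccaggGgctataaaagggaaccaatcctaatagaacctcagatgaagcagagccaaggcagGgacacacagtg
Capitals in the next pair mark the core of the sequence that Dux is known to bind, GATTCAATC, on the other strand GATTGAATC. The windows belong to Duxf3 (chr10:58233090-58233339, minus strand) and Gm4340 (chr10:104193792-104194041, plus strand), a 2-cell-stage gene outside the families.
Duxf3: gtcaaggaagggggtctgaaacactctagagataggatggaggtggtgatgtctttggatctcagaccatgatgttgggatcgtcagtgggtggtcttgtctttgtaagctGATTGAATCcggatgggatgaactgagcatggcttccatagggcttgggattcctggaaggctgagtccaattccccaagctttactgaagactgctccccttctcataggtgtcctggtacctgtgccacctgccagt
Gm4340: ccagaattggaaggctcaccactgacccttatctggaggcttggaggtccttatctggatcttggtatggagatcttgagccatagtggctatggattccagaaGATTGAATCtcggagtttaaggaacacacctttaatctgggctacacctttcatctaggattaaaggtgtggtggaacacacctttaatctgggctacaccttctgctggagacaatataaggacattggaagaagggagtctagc
Searched on both strands over windows of 300 bases, the core was present in 49 of 32851 promoters (0.149%). Of the 72 genes on the 2-cell-stage lists 39 had a promoter in the table, and 1 of these, Gm4340, held it. None of the 32 matched protein-coding genes that fell and none of the 29 that rose in the test below held it. A match is a string of letters and not a binding site.

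Single loci behaved like the family sums. Zscan4c was at 0.249 and 0.314 FPKM in WT (30 and 40 counts) and had 0 counts in both Dux KO lines, which makes it at least 23.5-fold lower against a floor of 3 counts per library. Zscan4d had 25 and 35 counts in WT and 0 in both Dux KO lines (at least 20.2-fold lower). Gm4340 was at 0.595 and 0.669 FPKM in WT (37 and 44 counts) and at 0 in both Dux KO lines (at least 27.2-fold lower). In each of these 3 genes both WT libraries lay above both Dux KO libraries, as in 27.4% of all tested genes. Zscan4c and Zscan4d are near copies, so they are not separate cases. Gm5662, an Eif1a-like 2-cell gene, had 38 and 50 counts in WT and 0 and 2 in Dux KO, a ratio of 88.8 (23.9 to 745). Gm6763 had 18 and 30 counts in WT and none in Dux KO (at least 16.1-fold lower), and Usp17la had 18 and 20 against none (at least 12.8-fold lower). Tcstv3 was at 0 in both WT libraries and at 2 and 0 counts in Dux KO, so nothing can be said of it. For comparison, in the p53 KO lines the Zscan4 sum was 53.3 and 52.4 and Gm4340 was at 5.33 and 4.21 CPM.

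**Figure D1:**
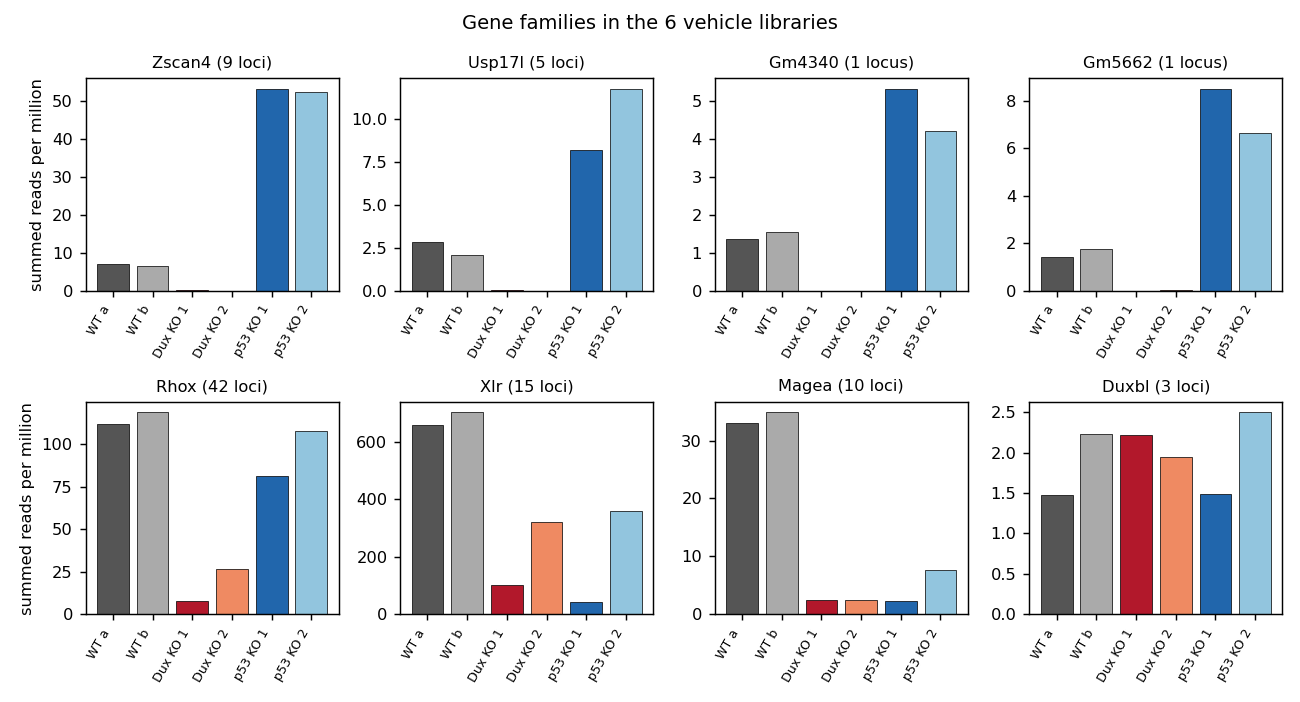
Summed depth-scaled reads (CPM) of 8 gene families or loci in the 6 vehicle libraries, 1 bar per library, with no error bars since each bar is 1 library; each panel has its own linear axis from 0. The Zscan4, Usp17l, Gm4340 and Gm5662 bars of both Dux KO lines are at or near 0, the Magea bars of both lines are at 2.43 and 2.39 against 33.0 and 34.9 in WT, and the Xlr bars differ between lines.

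Whether these falls passed a test depended on the scale. The main test was limma on log2(FPKM + 1) over all 12 libraries, with Benjamini-Hochberg adjustment over 14614 genes, and a gene is called at an adjusted p under 0.05. By it 389 genes were called (2.66%), 331 higher (2.26%) and 58 lower (0.397%) in Dux KO. None of the 37 tested loci of the 42 on the multigene-family list was called, on a scale that adds 1 to levels mostly below 1 FPKM. Their log2 differences ran from -1.69 to 0.02 with a median of -0.18, against -0.02 over all genes tested. In 31 of the 37, both Dux KO libraries were below both WT libraries, a pattern found in 27.4% of all tested genes. Only 6 of the loci reached 1 FPKM in any of the 4 vehicle libraries, and the others passed the filter on low values through other groups. Zscan4, for example, summed to 715 and 789 FPKM in drug-treated WT cells, against 0.018 and 0 in drug-treated Dux KO. The filter thus let in family loci that were high in drug-treated WT cells, so the 27.4% is not a like comparison. By edgeR's quasi-likelihood test on counts, which has no such offset and called 1.48% of 26974 genes (1.1% higher and 0.378% lower), 5 of the loci were lower: Zscan4c (adjusted p = 0.026), Zscan4d (0.035), Zscan4f (0.034), Zscan4-ps2 (0.025) and Gm5662 (0.039). Gm4340 (adjusted p = 0.026) passed as well. DESeq2 was run on the 11 distinct libraries and so with line 1 as the only Dux KO vehicle library. Its calls are therefore given only with the alternatives below.

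Not every gene on the 2-cell lists followed. Eif1ad, a member of the multigene-family list, was at 11.5 and 12.1 FPKM in WT and 9.56 and 11.9 in Dux KO. In drug-treated WT cells it was at 17.7 and 15.0, without the large rise of the Zscan4 loci. Whether it belongs with the 2-cell genes was not tested. Among PRAME-like genes, Pramef17 was at 6.97 and 6.64 in WT and 3.13 and 5.42 in Dux KO (limma adjusted p = 0.49), Pramef12 was at 4.70 and 4.59 in WT and 4.55 and 4.43 in Dux KO, while Pramel6 was at 3.04 and 2.83 against 0.088 and 0.367 (log2 difference -1.69, SE 0.83, limma adjusted p = 0.34). Pramel6 was also at 0.293 in p53 KO line 2 and at 2.59 in line 1, so this gene varied between lines of 1 genotype. Outside the families, Fbxo15, an F-box gene of pluripotent cells, was at 8.87 and 9.25 in WT and 6.34 and 7.79 in Dux KO (limma adjusted p = 0.20). The interferon-inducible gene Phf11d was at 5.71 in both WT libraries and at 5.85 and 7.67 in Dux KO (adjusted p = 0.66 by limma).

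Homeobox and cancer-testis genes in X-linked clusters were lower in both Dux KO lines at far higher levels than the 2-cell genes. Rhox genes encode reproductive homeobox proteins, Mage genes a family of germline and tumour antigens, and Xlr genes lymphocyte-regulated nuclear proteins. Of 30 loci on the list 14 were tested and 4 were called, all lower, against the 0.397% of all genes called lower. All 14 had both Dux KO libraries below both WT libraries, against 27.4% of all tested genes. Their median log2 difference was -1.09. The list was written with earlier results of these data known. Magea3, 1 of the 4 called, passed the filter on low values only through the 2 WT vehicle libraries, where it is highest. These counts therefore describe the list and do not test it. The Rhox loci together gave 112 and 119 CPM in WT and 7.73 and 26.5 in Dux KO lines 1 and 2. The 10 Magea loci gave 33.0 and 34.9 in WT and 2.43 and 2.39 in Dux KO, a WT to Dux KO ratio of 14.1 (12.4 to 16.1, counting error only). The 15 Xlr loci gave 658 and 704 in WT and 101 and 321 in Dux KO.

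Rhox5, the founding member of its cluster (chrX:37804842-37808876, plus strand), had the largest fall of any protein-coding gene called. It was at 14.4 and 15.9 FPKM in WT and 0.514 and 2.51 in Dux KO (log2 difference -2.81, SE 0.39, limma adjusted p = 0.011). Rhox6 was at 4.63 and 3.43 in WT and 0.461 and 1.26 in Dux KO (-1.46, SE 0.25, adjusted p = 0.024 by limma). Rhox9 was at 2.42 and 2.47 in WT and 0.353 and 1.05 in Dux KO (-1.05, SE 0.21, limma adjusted p = 0.042). For all 3 genes line 1 lay below line 2 and the groups did not overlap, which was so for 50.4% of all genes tested. Without Dux KO line 1, Rhox6 and Rhox9 were no longer called. In p53 KO cells Rhox5 was at 16.4 and 10.8 FPKM.

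Magea3 (chrX:154948543-154949505, minus strand) was at 1.28 and 1.96 FPKM in WT and 0.039 and 0.164 in Dux KO (log2 difference -1.24, SE 0.15, limma adjusted p = 0.0088). Magea4 (chrX:72222017-72222964, plus strand) was at 6.27 and 5.49 in WT and 2.21 and 1.33 in Dux KO (-1.33, SE 0.23, limma adjusted p = 0.023). Both are single-exon genes. Magea2, Magea5 and Magea8 were under the filter on FPKM, and their counts in WT were 39.3, 39.7 and 35.3 times those in Dux KO after scaling to depth. By edgeR on counts Magea2, Magea5 and Magea10 were lower (adjusted p = 0.015, 0.017 and 0.047), while none of the 5 Rhox and Magea genes called by limma and given here passed: Rhox5 (0.054), Rhox6 (0.064), Rhox9 (0.095), Magea3 (0.11) and Magea4 (0.063). In p53 KO cells the Magea loci were at 2.34 and 7.56 summed CPM. Levels of the Xlr genes differed between lines of 1 genotype: Xlr3a was at 7.53 and 7.87 FPKM in WT, 2.33 and 6.29 in Dux KO and 0.778 and 6.13 in p53 KO. No Xlr gene was called, and Xlr5b came closest (limma adjusted p = 0.16). The part that line identity has in these values was not tested.

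By limma on all 12 libraries, most calls were rises in processed pseudogenes. They made up 255 of the 331 rises and 3 of the 58 falls, that is 11.9% of the 2171 processed pseudogenes tested against 0.847% of 9210 protein-coding genes. Their median log2 difference was 0.39 (0.28 in line 1 and 0.55 in line 2 against the WT mean, and 0.03 between WT b and a). For 174 ribosomal protein pseudogenes, known by name, the median was 0.63, made up of 0.22 in line 1 and 1.01 in line 2. Fabp3-ps1, a copy of the fatty acid binding protein gene Fabp3, was at 71.6 and 83.5 FPKM in WT and 305.6 and 490.4 in Dux KO (log2 difference 2.31, limma adjusted p = 0.038), an example chosen after its values were seen.

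Reads of such copies cannot be told with certainty from those of their parent genes. Of the rises, 33 bore the name of a tested protein-coding gene, from 30 distinct parents. Of these 30 parents, 3 were called higher (Fabp3, Rpl7a and Rpl29) and none lower. The pseudogenes' median log2 difference was 1.26 and their parents' 0.42, against 0.06 for all 142 such parents. Without line 2, which had the largest share of such reads, 110 processed pseudogenes were called higher. Without line 1, 442 were. On counts the share was smaller: rises in processed pseudogenes were 163 of 399 calls by edgeR with all 12 libraries, 55 of 287 by edgeR on the 11 distinct libraries and 199 of 1784 by DESeq2. The part of library makeup in these rises was not tested.

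**Figure D2:**
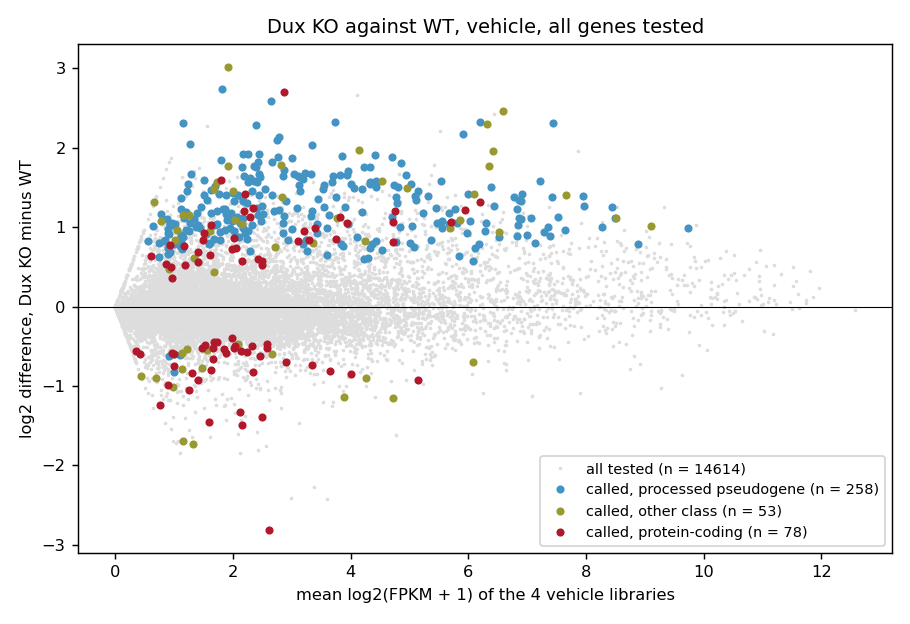
Log2 difference in FPKM + 1 between Dux KO and WT vehicle libraries against the mean level of the 4 libraries, 1 point per tested gene, with called genes coloured by class. The 258 called processed pseudogenes lie nearly all above 0, and the 78 called protein-coding genes are 39 on each side.

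Of the protein-coding genes 39 rose and 39 fell, 0.423% each way. Rescaling libraries by median ratios changed the 2 counts to 68 and 37. In the main test, 12 of the rises and 3 of the falls were among the 524 tested protein-coding loci without introns. The calls rest on a spread shared by all 12 libraries and on both WT libraries. With the 4 vehicle libraries alone no gene was called (0 of 14614 by limma, 2500 at an unadjusted p under 0.05, against 2586 in the main test). Fits over more libraries gave other counts: edgeR on the counts of all 12 libraries called 399 genes and DESeq2 on the 11 distinct libraries 1784. With WT a left out 40 genes were called and with WT b left out 27. Of the 28 called genes that the naming rule gives, Aldoart1 and Magea3 remained without WT a and Aldoart1 remained without WT b. Without line 2, 13 of the 28 remained: Aldoart1, Notum, Camk2n1, H1f0, Rhox5, Lin28a, Rhox6, Dnmt3l, Magea3, Rhox9, Prss42, Utf1 and Ddx21. Without line 1, 20 remained, and Apoe, Nr0b1, Rhox6, Dnmt3l, Rhox9, Slc13a5, Hus1b and Thy1 did not.

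Aldoart1, which encodes an aldolase of the male germline in a gene without introns (chr4:72850583-72852634, minus strand), had the largest rise among protein-coding genes. It was at 2.25 and 1.51 FPKM in WT and 21.2 and 14.6 in Dux KO (log2 difference 2.70, SE 0.24, limma adjusted p = 0.0054). Aldoa, the common aldolase gene it resembles, was at 339 and 341 in WT and 371 and 375 in Dux KO and was not called (limma adjusted p = 0.76). In p53 KO cells Aldoart1 was at 0.864 and 1.59, and the difference between the knockouts was not tested.

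The other large rises were in genes of varied function. Apoe, the apolipoprotein of lipid transport (chr7:19696109-19699188), was at 45.8 and 45.0 FPKM in WT and 117 and 113 in Dux KO (log2 difference 1.32, SE 0.23, adjusted p = 0.024 by limma). Fabp3 was at 0.947 and 1.06 in WT and 3.80 and 6.64 in Dux KO (1.59, SE 0.33, adjusted p = 0.046), in a span that overlaps Gm10570 and Zcchc17. Notum, a secreted enzyme that inactivates Wnt proteins (chr11:120653788-120661175), was at 2.35 and 2.26 in WT and 8.23 and 5.59 in Dux KO (1.24, SE 0.17, limma adjusted p = 0.012), and its antisense partner Notumos shares its span. In p53 KO cells Notum was at 1.26 and 1.08. The calcium-binding protein gene S100a1 was at 1.72 and 1.90 in WT and 5.09 and 8.20 in Dux KO, and Camk2n1, an inhibitor of a calmodulin-dependent kinase, at 1.76 and 2.25 and at 6.99 and 4.94. Both passed the test (limma adjusted p = 0.043 and 0.018).

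Of the remaining rises, Chchd10, a mitochondrial protein gene that shares its span with Mmp11, was at 19 and 14.9 FPKM in WT and 39.9 in both Dux KO lines (log2 difference 1.20, SE 0.20, limma adjusted p = 0.020). H1f0, a linker histone gene, was at 17.7 and 16.7 in WT and 43.0 and 32.1 in Dux KO (1.07, SE 0.18, adjusted p = 0.022 by limma). Gm49544 overlaps its span. Rpp25, a subunit of the RNase P and MRP complexes, was at 39.3 and 31.2 in WT and 73.2 and 75.7 in Dux KO (1.07, SE 0.16, limma adjusted p = 0.015). The odorant receptor gene Olfr77 was at 2.44 and 2.18 against 5.62 and 6.86 (limma adjusted p = 0.030). Gm7808 overlaps its span, and which of these genes the reads came from was not tested.

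**Figure D3:**
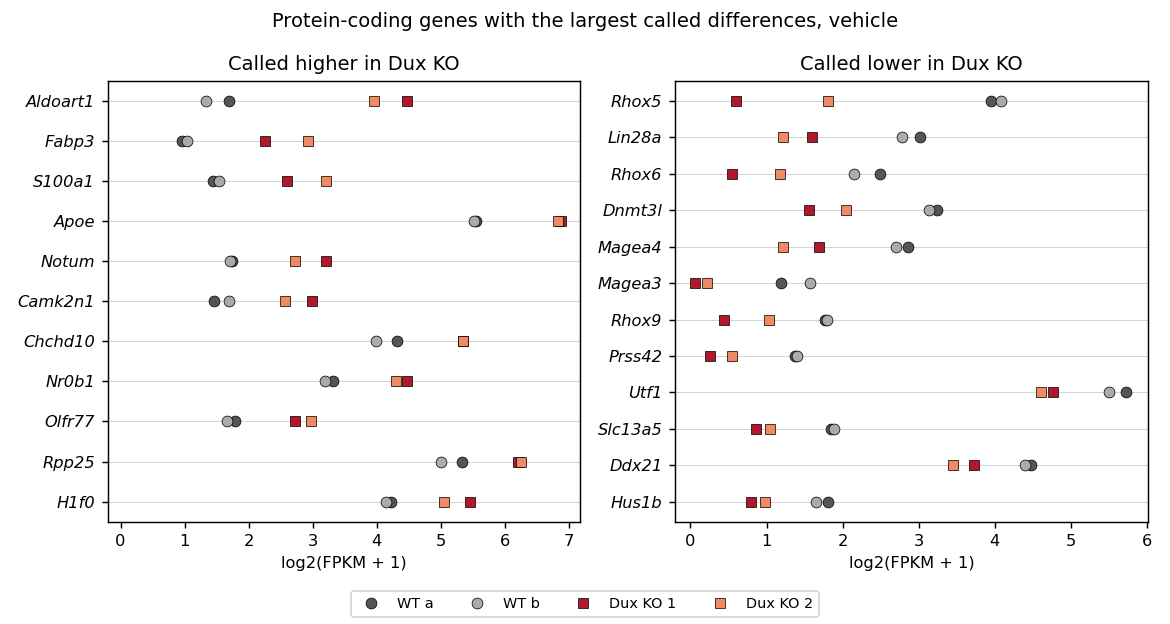
Levels as log2(FPKM + 1) of the named protein-coding genes with the largest called rises (left) and falls (right) in the 4 vehicle libraries, 1 symbol per library. The 2 WT circles lie on 1 side of the 2 Dux KO squares in every row, as the rule for naming requires.

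Among called protein-coding genes on autosomes, Lin28a had the largest fall. Lin28a, an RNA-binding protein gene of pluripotent cells that is also listed among regulators of Dux (chr4:134003330-134018841, minus strand), was at 7.08 and 5.86 FPKM in WT and 2.02 and 1.32 in Dux KO (log2 difference -1.49, SE 0.20, limma adjusted p = 0.0094). It was at 4.79 and 4.84 in p53 KO, and Gm13061 overlaps its span. Dnmt3l, the catalytically inactive partner of the de novo DNA methyltransferases (chr10:78041947-78063622), was at 8.45 and 7.74 in WT and 1.94 and 3.13 in Dux KO (-1.38, SE 0.26, limma adjusted p = 0.031). It shares its span with Aire and was not called without line 1. Utf1, a chromatin-associated factor of undifferentiated cells (chr7:139943789-139945112), was at 51.8 and 44.2 in WT and 26.2 and 23.4 in Dux KO (-0.92, SE 0.13, limma adjusted p = 0.011).

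The serine protease gene Prss42, known from the testis, was at 1.60 and 1.64 FPKM in WT and 0.199 and 0.464 in Dux KO (log2 difference -0.98, SE 0.14, limma adjusted p = 0.011). Ddx21, a helicase of the nucleolus, was at 21.2 and 20.05 in WT and 12.2 and 9.91 in Dux KO (-0.85, SE 0.12, adjusted p = 0.011 by limma). The citrate transporter gene Slc13a5 was at 2.60 and 2.71 in WT and 0.809 and 1.06 in Dux KO (limma adjusted p = 0.027), and at 0.554 and 0.853 in p53 KO. The span of Slc13a5 overlaps 1700051A21Rik. Hus1b, a checkpoint clamp gene that lies within Exoc2, was at 2.49 and 2.13 against 0.731 and 0.966 (limma adjusted p = 0.044). It did not pass by edgeR on counts (adjusted p = 0.093).

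Regulators of Dux other than Lin28a were not called. Of 36 genes on that list 35 were tested, with 1 fall, no rise and a median log2 difference of -0.10. Ncl, nucleolin, was at 174.5 and 177.3 FPKM in WT and 124.5 and 119.5 in Dux KO (log2 difference -0.53, SE 0.16, limma adjusted p = 0.13). Dppa2 and Dppa4, activators of Dux, were at 1.51 and 1.43 and at 5.17 and 5.95 in WT, and at 1.44 and 1.15 and at 4.44 and 5.65 in Dux KO. Neither gene passed the test (limma adjusted p = 0.75 and 0.82).

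Naive pluripotency genes went in both directions. Of 30 tested, Nr0b1 rose and Utf1 fell, and the list's median was -0.03. Nr0b1, the orphan receptor Dax1 (chrX:86191764-86195947), was at 9.0 and 8.11 FPKM in WT and 21.2 and 18.7 in Dux KO (log2 difference 1.13, SE 0.24, limma adjusted p = 0.046), and was not called without either Dux KO line or with the line as a replicate block. By edgeR on counts Nr0b1 did not pass (adjusted p = 0.055). Pou5f1 was at 194 and 197 in WT and 167 and 216 in Dux KO, and Nanog at 190 and 180 against 128 and 155 (limma adjusted p = 0.96 and 0.47). None of 10 primed pluripotency genes, 12 trophectoderm genes, 4 primitive endoderm genes, 5 primitive streak genes and 3 neuroectoderm genes tested was called. Lefty2, a Nodal antagonist, was at 8.24 and 9.02 FPKM in WT and 14.9 and 10.4 in Dux KO (limma adjusted p = 0.61). Tfap2c, a trophoblast and germline factor, was at 5.12 and 4.56 against 4.53 and 4.42, and the matrix gene Sparc at 6.26 and 5.66 against 5.08 and 7.53. Gsc, a homeobox gene of the organiser, differed between the lines, at 1.05 and 3.47 against 3.12 and 2.43 in WT. Peg10, an imprinted gene of the placenta, was at 9.19 and 8.70 in WT and 4.19 and 3.72 in Dux KO, and at 10.5 and 1.66 in p53 KO (log2 difference -1.01, SE 0.70, limma adjusted p = 0.53). Of 27 imprinted genes tested none was called, and Cd81, a tetraspanin gene, was at 16.7 in both WT libraries and 23.5 and 24.4 in Dux KO (limma adjusted p = 0.37).

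Among 11 tested genes of DNA methylation and demethylation Dnmt3l alone was called by limma. By edgeR on counts Dnmt3l did not pass (adjusted p = 0.07). Hells, a remodeller needed for DNA methylation, was at 14.1 and 14.3 FPKM in WT and 8.22 and 7.30 in Dux KO (log2 difference -0.79, SE 0.19, limma adjusted p = 0.069). Dnmt3b was at 3.47 and 3.02 in WT and 1.88 and 1.68 in Dux KO (-0.61, SE 0.16, limma adjusted p = 0.096). In both, the Dux KO libraries were below the WT libraries without passing the threshold. Dnmt1 and Uhrf1, of maintenance methylation, were at 5.50 and 5.09 and at 15.1 and 14.8 in WT, with line 1 above and line 2 below them.

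Of 38 tested targets of p53 1 was called, and 20 had both Dux KO libraries below both WT libraries, against 27.4% of all tested genes. Trp53inp1, a stress-induced p53 target, was at 15.1 and 16 FPKM in WT, 9.89 and 7.16 in Dux KO and 2.22 and 1.74 in p53 KO. Its log2 difference of Dux KO against WT was -0.81 (SE 0.15, limma adjusted p = 0.033). By edgeR on counts it did not pass (adjusted p = 0.074), nor did any other target on the list. Cdkn1a, the cell cycle inhibitor p21, was at 8.30 and 8.14 in WT and 11.7 and 12.9 in Dux KO (0.53, SE 0.18, limma adjusted p = 0.18). Mdm2, the ubiquitin ligase that limits p53, was at 7.56 and 6.84 against 4.88 and 4.59 (-0.52, SE 0.12, limma adjusted p = 0.066). The list's median was -0.12. The lists of Dux regulators, naive and primed pluripotency, primitive endoderm, primitive streak, imprinting, DNA methylation and mitosis had unstable medians. Under another scaling or on counts these medians changed sign, so no direction is read from them, also where a value is printed.

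**Figure D4:**
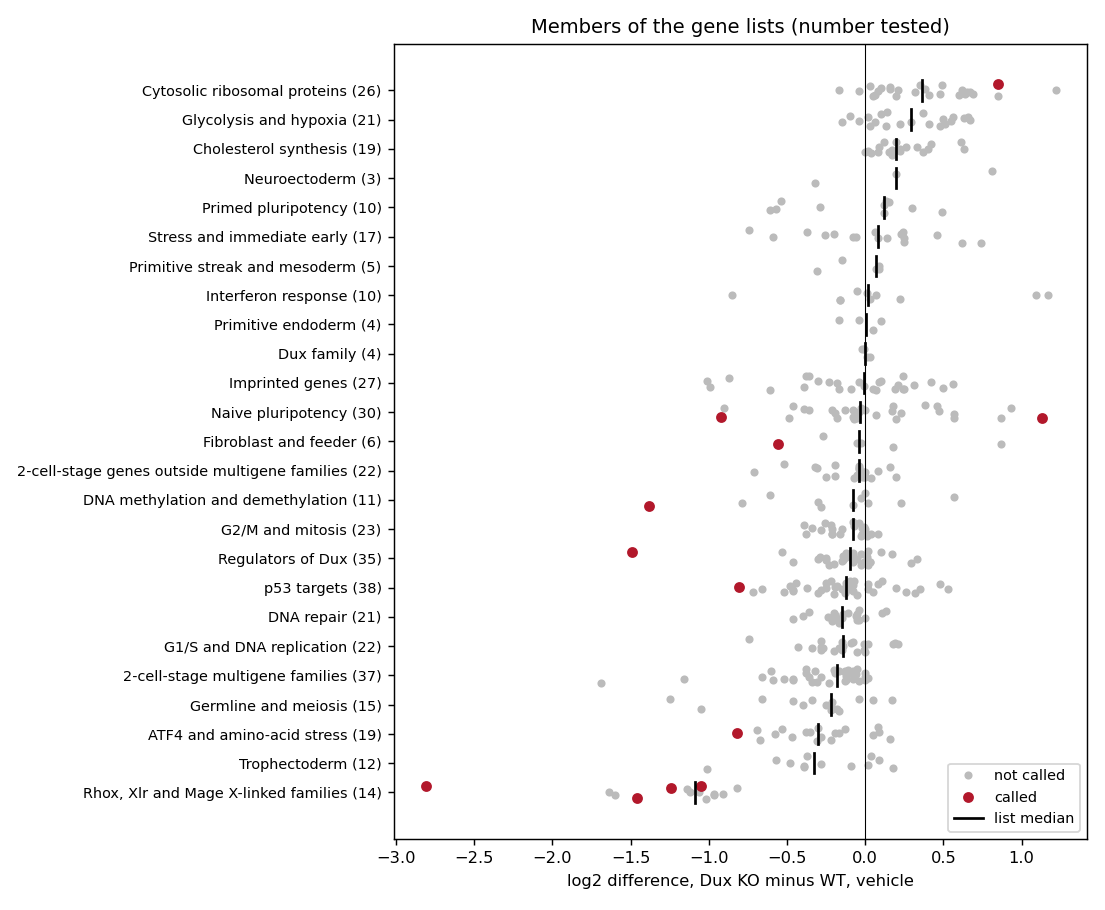
Log2 difference between Dux KO and WT vehicle libraries for the tested members of each gene list with 3 or more of them, 1 point per gene, called genes in red and the list median as a black bar; vertical scatter within a row is for display. The X-linked Rhox, Xlr and Mage list has the lowest median at -1.09 and the cytosolic ribosomal proteins the highest at 0.37.

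Chromosome medians lay near 0. Medians of the log2 difference per autosome ran from -0.071 to 0.034 over the 19 autosomes, from -0.088 to 0.037 in line 1 and from -0.088 to 0.040 in line 2. The X chromosome, with 523 tested genes, had a median of -0.001, beside the falls of its Rhox and Mage clusters. Within 1 Mb of Duxf3 there are 34 annotated genes, of which 12 were tested and 0 called by limma, with log2 differences from -0.34 to 0. The neighbours at 1 FPKM or more were Hsf2, Serinc1, Ranbp2 and Sowahc, and Ranbp2 was at 6.54 and 6.88 FPKM in WT and 6.65 and 3.83 in Dux KO.

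**Figure D5:**
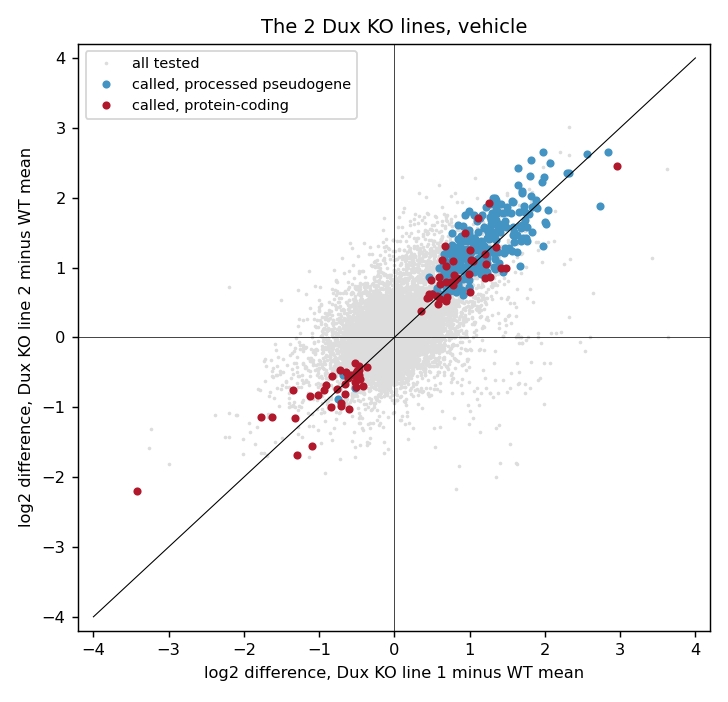
Log2 difference in FPKM + 1 of each Dux KO line against the mean of the 2 WT vehicle libraries, line 1 on the horizontal and line 2 on the vertical axis, 1 point per tested gene; the diagonal marks equal differences. All 389 called genes differ from WT in the same direction in both lines, and 182 of the 255 called processed pseudogenes that rose lie above the diagonal.

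The doxorubicin libraries of the same lines, which entered the test through the shared spread and the filter on low values but not through the contrast, were read as a second set of samples. Of the 331 genes that rose, 317 also had both drug-treated Dux KO libraries above both drug-treated WT libraries, a pattern that 55.5% of all tested genes showed. Processed pseudogenes made up 248 of the 317. They took 7.53 and 6.41% of counts in drug-treated WT libraries, against 9.86 and 9.31% in drug-treated Dux KO. The 55.5% is over all classes, and no such share was taken for processed pseudogenes alone. Of the 58 genes that fell, 35 had both drug-treated Dux KO libraries below both WT ones, against 24% of all tested genes. Among protein-coding genes these were 35 of the 39 rises and 23 of the 39 falls. Rhox5 was at 0.378 and 1.22 FPKM in drug-treated Dux KO cells and 5.47 and 4.70 in drug-treated WT cells, and Aldoart1 at 9.72 and 13.05 against 0.271 and 0.229. Utf1 did not keep its difference, at 10.04 and 9.56 against 8.62 and 9.64. These libraries come from the same 2 lines, so they repeat the line and not the knockout.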

How the data were processed

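RNA was sequenced from 12 libraries in 6 groups of 2, and the 4 vehicle libraries of Dux KO and WT cells were compared. The authors deposited whole-number counts per Ensembl gene and FPKM values for each library. TopHat2, DESeq and DESeq2 with build mm10 are named in the submitters' processing notes, without roles; the read counter, annotation and strand setting are not given in the sources used here. Deposited FPKM values follow the gene span: in 98.2% of 9127 genes the length they imply matched it to 1%. Another 6 columns of group averages were not used. Names came from GENCODE (GRCm38), with 54409 of 54532 identifiers matched.

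The main test was limma 3.58.1 on log2(FPKM + 1) for genes at 1 FPKM or more in at least 2 libraries, with 1 mean per group over all 12 libraries (6 residual degrees of freedom), an intensity trend and Benjamini-Hochberg adjustment. Fold changes on this scale understate those of low genes. Counts of Dux KO line 2 were recovered from FPKM (100% of 2704 low values within 0.15 of a whole read) and tested with edgeR 4.0.16; DESeq2 1.42.0 used the deposited counts. An exact permutation test of 2 against 2 cannot go below p = 0.333. On simulated data with 200 changed genes among 14614, limma found 45% of 2-fold and 87% of 4-fold changes, with 7.04% of calls false. The changed genes were drawn only from those with a WT mean above 2 on the log2(FPKM + 1) scale. The rates of finding changes therefore do not cover lower genes, such as most 2-cell loci. Simulated noise was independent between libraries, whereas real libraries of 1 line had an estimated correlation of 0.375.

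Named genes were the 12 largest called protein-coding rises and falls without overlap of the groups, up to 4 called members of each of 27 gene lists (or the 1 or 2 of highest level where none was called), Duxf3, Trp53 and called neighbours of Duxf3; every other gene named was chosen after its values were seen. Some genes that these rules give are not reported here. Members and lists were chosen with earlier results of these data known.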

Additional observations from a re-analysis of the deposited data

How the results depend on the processing

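Of the 28 called genes that the naming rule gives, none changed direction under the 14 alternatives (13 for Magea3, which had no value by DESeq2); other genes named were not followed in this way. Counts of calls moved widely. With only the 4 vehicle libraries 0 genes were called, 0 higher and 0 lower, among them 0 protein-coding and 0 of the X-linked list; the alternative has fewer samples. Leaving out 1 library gave 27 to 734 calls (26 to 586 higher, 1 to 148 lower), 1 to 101 protein-coding rises, 0 to 106 protein-coding falls and 0 to 4 members of the X-linked list, the lone sample of an arm being taken to vary like the other groups. By edgeR on the 11 distinct libraries 188 genes were higher and 99 lower (98 and 84 protein-coding). With RLE scaling 243 were called, 141 higher and 102 lower (70 and 89 protein-coding). Without a filter 130 were lower (126 and 109 protein-coding higher and lower), with 1 member of the 2-cell families. DESeq2 called 1784, 808 higher and 976 lower (466 and 813 protein-coding), with 18 members of the 2-cell families and 10 of the X-linked list. By edgeR with recovered counts 102 were lower (93 and 84 protein-coding) and 5 members of the 2-cell families were called. Protein-coding rises were 25 with a pseudocount of 0.1 and 68 with median-ratio scaling. For these shifts the cause was not tested. With the knockout line as a replicate block 376 genes were called (320 higher and 56 lower), and S100a1 and Nr0b1 lost their calls; the WT columns carry no number, so nothing pairs them with the knockout lines. The low counts of the 2-cell genes limit what can be said of single loci.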

Other observations

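Other lists cover genes of metabolism, translation and growth. Of all tested protein-coding genes 0.847% were called. Of 19 cholesterol synthesis genes none was called, yet 13 had both Dux KO libraries above both WT libraries and none had both below (23% of all tested genes are above in this way). Insig1, a feedback regulator of sterol synthesis, was at 13.7 and 15.5 FPKM in WT and 24.4 and 22.0 in Dux KO (log2 difference 0.63, SE 0.20, limma adjusted p = 0.14). Of 21 tested genes of glycolysis and hypoxia none was called and 13 were above, with a median log2 difference of 0.29 against -0.02 over all genes. Of 26 cytosolic ribosomal protein genes Rpl3 alone was called, at 9.10 and 8.82 FPKM in WT and 15.0 and 19.3 in Dux KO (0.85, SE 0.16, limma adjusted p = 0.031). The median of these 26 was 0.37, and 0.41 with median-ratio scaling. By edgeR on counts it was 0.04 without line 2 and 0.59 with all 12 libraries. Ribosomal protein genes outside this list, among them Rpl7a, Rpl29 and Rpl36a, were also called higher by limma. The 15 mitochondrially encoded genes are listed at 0 in all 4 libraries.

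In the list of ATF4 and amino-acid stress genes, 19 were tested and 1 was called. Chac1, a glutathione-degrading enzyme induced by ATF4, was at 5.84 and 5.62 FPKM in WT and 3.11 and 2.52 in Dux KO. Its log2 difference was -0.82 (SE 0.13, limma adjusted p = 0.018), and it did not pass by edgeR on counts (adjusted p = 0.087). The list's median was -0.30. Pcna, the replication clamp, was at 61.4 and 65.4 FPKM in WT and 66.2 and 79.1 in Dux KO, and Parp1, a DNA break sensor, at 18.2 and 17.9 against 15.1 and 11.9 (limma adjusted p = 0.74 and 0.29). None of 22 G1/S genes, 23 mitotic genes, 21 DNA repair genes, 15 germline genes, 17 stress and immediate early genes and 10 interferon response genes tested was called, nor was Xist or Tsix. Ifitm3, an interferon-induced membrane protein gene, was at 34.7 and 37.7 FPKM in WT and 74.5 and 82.3 in Dux KO (1.09, SE 0.29, limma adjusted p = 0.096). Of 6 tested fibroblast and feeder genes, Thy1, a surface protein also used as a fibroblast marker, was called: 0.599 and 0.508 FPKM in WT and 0.044 and 0.069 in Dux KO (-0.56, SE 0.11, limma adjusted p = 0.039). Spp1, osteopontin, was at 66.4 and 75.7 against 155 and 120 and missed the threshold by limma (adjusted p = 0.058) but not by edgeR on counts (0.044).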
